A study of Homo sapiens with 12 samples.

Results

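The 10 genes described here are CCN1, CCN2, ANKRD1, AMOTL2, AMOTL1, AMOT, LATS2, AJUBA, TEAD1 and TEAD4, which are targets or regulators of the transcription cofactors YAP and TAZ and of their DNA-binding partners, the TEAD factors. They were taken by symbol (CCN1 is CYR61 and CCN2 is CTGF in older names), and all 10 were found among the 58735 genes of the count table. Of these 10, 9 passed the filter on low counts that left 16133 genes for testing, and ANKRD1 did not. Polyadenylated RNA was sequenced from KP4 and MiaPaca2, established lines labelled as human pancreatic ductal adenocarcinoma, in 4 groups of 3 libraries: KP4 trametinib, KP4 DMSO, MiaPaca2 trametinib and MiaPaca2 DMSO. Trametinib, an inhibitor of the kinases MEK1 and MEK2, was given at 100 nM for 48 h, and DMSO is its solvent. No genetic change was introduced, each model is a single cell line, and the labels do not say whether the 3 libraries came from separate cultures, and p-values can only be read against the spread among these libraries, part of which may be technical.

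YAP and TAZ enter the nucleus and bind TEAD factors to switch on transcription, and the Hippo kinase cascade opposes this when LATS kinases phosphorylate them. Angiomotin proteins also bind YAP and hold it at junctions and in the cytoplasm. Several of the restraining genes, among them LATS2 and AMOTL2, are themselves known YAP/TEAD targets and form negative feedback.

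TEAD factors recognise the letters GGAATG, and the promoter sequences below show where these letters lie in 4 of the 10 genes: CCN2, ANKRD1, AMOTL2 and AJUBA. CCN2 and ANKRD1 are widely used as YAP reporters. The sequences printed are those of the windows with a match before the start site. AMOTL2 and AJUBA rose in both lines, as did LATS2 and AMOT, which had no match before the start site. RefSeq windows (GRCh38.p14) were matched for 7 of the 10 genes, 9 windows in all, since AMOTL2 and AJUBA each have 2 start sites in the table. CCN1, TEAD1 and TEAD4 have no entry. Each line gives the 250 bases before the start site, 5′ to 3′ on the gene's own strand, and the capitals mark GGAATG or its reverse complement CATTCC.
CCN2 (chr6:131951373-131951622, minus strand): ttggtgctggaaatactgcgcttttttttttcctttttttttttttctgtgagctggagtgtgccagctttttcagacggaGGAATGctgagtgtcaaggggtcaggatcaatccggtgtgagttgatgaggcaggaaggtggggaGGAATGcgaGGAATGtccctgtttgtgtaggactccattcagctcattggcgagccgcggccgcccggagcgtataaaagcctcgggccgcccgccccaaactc
ANKRD1 (chr10:90921088-90921337, minus strand): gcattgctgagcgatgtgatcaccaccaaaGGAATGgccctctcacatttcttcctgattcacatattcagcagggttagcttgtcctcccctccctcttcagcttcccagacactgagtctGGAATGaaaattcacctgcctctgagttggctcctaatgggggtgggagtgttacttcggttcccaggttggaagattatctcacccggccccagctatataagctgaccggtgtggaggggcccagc
AMOTL2, second window (chr3:134374448-134374697, minus strand): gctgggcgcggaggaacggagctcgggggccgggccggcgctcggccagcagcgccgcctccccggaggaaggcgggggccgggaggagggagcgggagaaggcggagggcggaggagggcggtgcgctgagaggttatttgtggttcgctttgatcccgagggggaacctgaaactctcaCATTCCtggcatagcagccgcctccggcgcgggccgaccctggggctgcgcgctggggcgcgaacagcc
AJUBA, second window (chr14:22976843-22977092, minus strand): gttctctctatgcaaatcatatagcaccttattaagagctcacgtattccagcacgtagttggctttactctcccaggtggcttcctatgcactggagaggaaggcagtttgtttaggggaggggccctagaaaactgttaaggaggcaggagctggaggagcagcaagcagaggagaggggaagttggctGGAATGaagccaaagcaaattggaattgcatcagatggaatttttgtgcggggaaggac

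The CCN2 promoter held 3 matches, at 169, 104 and 95 bases before the start site. ANKRD1 held 2, at 220 and 128 bases before it, and also 1 match to TGANTCA, the letters searched for AP-1 with N as any base. That match, at 195 bases before the start, read TGATTCA. AMOTL2 held 1 match on the reverse strand, 69 bases before its second start site, and AJUBA 1 match 59 bases before its second start site. LATS2 held 1 match, 10 bases after its start site, and the windows of AMOTL1 and AMOT and the first windows of AMOTL2 and AJUBA held none. Both strands were searched, in windows from 250 bases before to 50 bases after the start, and no match of one motif overlapped the other. Of 35116 such windows in the table, 14.0% held GGAATG at least once, 1.37% at least 2 times and 0.128% (45 windows) at least 3 times, and 7.71% held TGANTCA. A match describes the letters only.

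Total counts ran from 20293688 to 28018129 per library. The ERK output genes DUSP6, SPRY4, ETV4 and ETV5 all fell in both lines (log2 fold changes from −6.84 to −5.77), SPRY4 to 2.12 ± 0.13 CPM in KP4 trametinib, against 206 ± 3.4 CPM in KP4 DMSO (SD, n = 3 each). MiaPaca2 DMSO replicate 2 stood apart: the chi-square of its counts, divided by the degrees of freedom, was 14.5 and 13.3 against replicates 1 and 3, while those differed from each other by 7.70 and pairs within the other 3 groups by 2.02 to 2.89. No pair of libraries agreed within sampling noise. Mitochondrial transcripts took 5.48% to 5.75% of counts in KP4 trametinib, against 4.16% to 4.38% in KP4 DMSO, and 4.02% to 4.25% in MiaPaca2 trametinib, against 2.35%, 3.32% and 2.25% in MiaPaca2 DMSO replicates 1, 2 and 3. Of the ductal markers, 7 of 10 reached 1 CPM in KP4 trametinib, 6 in KP4 DMSO, 7 in MiaPaca2 trametinib and 5 in MiaPaca2 DMSO; CFTR had no count, EPCAM stayed under 1 CPM in all 4 group means, and CDH1 averaged 4.96 CPM in KP4 trametinib, 0.472 in KP4 DMSO, 2.30 in MiaPaca2 trametinib and 0.141 in MiaPaca2 DMSO. All 4 mesenchymal markers reached 1 CPM in every group, and the 4 acinar markers had no count. Of the 3 neuroendocrine markers, SYP averaged 14.0 to 21.3 CPM over the groups, and CHGA and INS stayed under 1 CPM. The summed immune level reached at most 5.94 CPM in a library and the summed endothelial level at most 2.90 CPM. The summed mesenchymal level, mostly VIM, was 3313 to 3323 CPM in KP4 trametinib, against 3819 to 3843 in KP4 DMSO, and 5067 to 5163 CPM in MiaPaca2 trametinib, against 5886 to 6553 in MiaPaca2 DMSO, while CDH2 averaged more under trametinib, 173 CPM in KP4 trametinib, against 131 in KP4 DMSO, and 73.1 CPM in MiaPaca2 trametinib, against 33.9 in MiaPaca2 DMSO. ZEB1 averaged 44.2 CPM in KP4 trametinib, against 55.5 in KP4 DMSO, and 46.05 CPM in MiaPaca2 trametinib, against 52.6 in MiaPaca2 DMSO, and FN1 averaged 14.7, 15.3, 33.2 and 15.5 CPM in the same 4 groups. The summed ductal level was 237 to 246 CPM in KP4 trametinib, against 372 to 383 in KP4 DMSO, and 853 to 862 CPM in MiaPaca2 trametinib, against 1844 to 2218 in MiaPaca2 DMSO. Among these markers in KP4 trametinib, against KP4 DMSO, KRT18 averaged 127 against 183 CPM, SOX9 27.2 against 126 and KRT7 1.75 against 2.49. KRT8 averaged 64.0 against 51.9 CPM there, KRT19 4.39 against 3.25 and MUC1 11.9 against 8.58. For MiaPaca2 trametinib against MiaPaca2 DMSO, KRT8 averaged 364 against 872 CPM, KRT18 218 against 759, KRT19 97.2 against 177 and SOX9 64.7 against 189. MUC1 averaged 111 against 17.1 CPM there and KRT7 1.17 against 0.872. The summed fibroblast level was 217 to 229 CPM in MiaPaca2 trametinib, against 72.5 to 123 in MiaPaca2 DMSO, mostly COL1A2, with DCN, LUM and PDGFRA under 1 CPM. The part of these marker and mitochondrial shifts in the results below was not tested.

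Most of the measured YAP/TEAD genes were higher with trametinib in both lines. In KP4, 6 of the 9 tested genes rose (CCN1, AMOTL2, AMOT, LATS2, AJUBA and TEAD1), 1 fell (AMOTL1), and CCN2 and TEAD4 did not pass the test, where 23.6% of all tested genes rose and 23.6% fell. In MiaPaca2, 7 of the 9 rose (CCN1, CCN2, AMOTL2, AMOT, LATS2, AJUBA and TEAD1), 1 fell (TEAD4), and AMOTL1 did not pass, where 34.1% of all tested genes rose and 29.5% fell. The median log2 fold change of the 9 genes was 0.69 in KP4 and 1.00 in MiaPaca2, beside 0.00 and 0.05 over all tested genes. Calls are from edgeR's quasi-likelihood test at an adjusted p under 0.05, and without MiaPaca2 DMSO replicate 2 the counts were 6 and 2 in KP4, where CCN2 also passed, and 7 and 1 in MiaPaca2. More genes passed in KP4 in that fit as a whole: 4143 of 16596 rose and 4208 fell, against 3805 and 3812 of 16133 in the full fit. In MiaPaca2, 5621 rose and 4815 fell in that fit, against 5500 and 4755 in the full fit. Without that replicate the MiaPaca2 log2 fold changes were 1.68 for AMOTL2, 1.21 for LATS2, 1.41 for AJUBA, 0.26 for TEAD1, −0.13 for TEAD4 and 0.03 for AMOTL1, each with the same call as in the full fit; those of CCN1, CCN2 and AMOT are given below. In bulk libraries, fewer cells of a kind and less RNA per cell cannot be told apart.

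**Figure D1:**
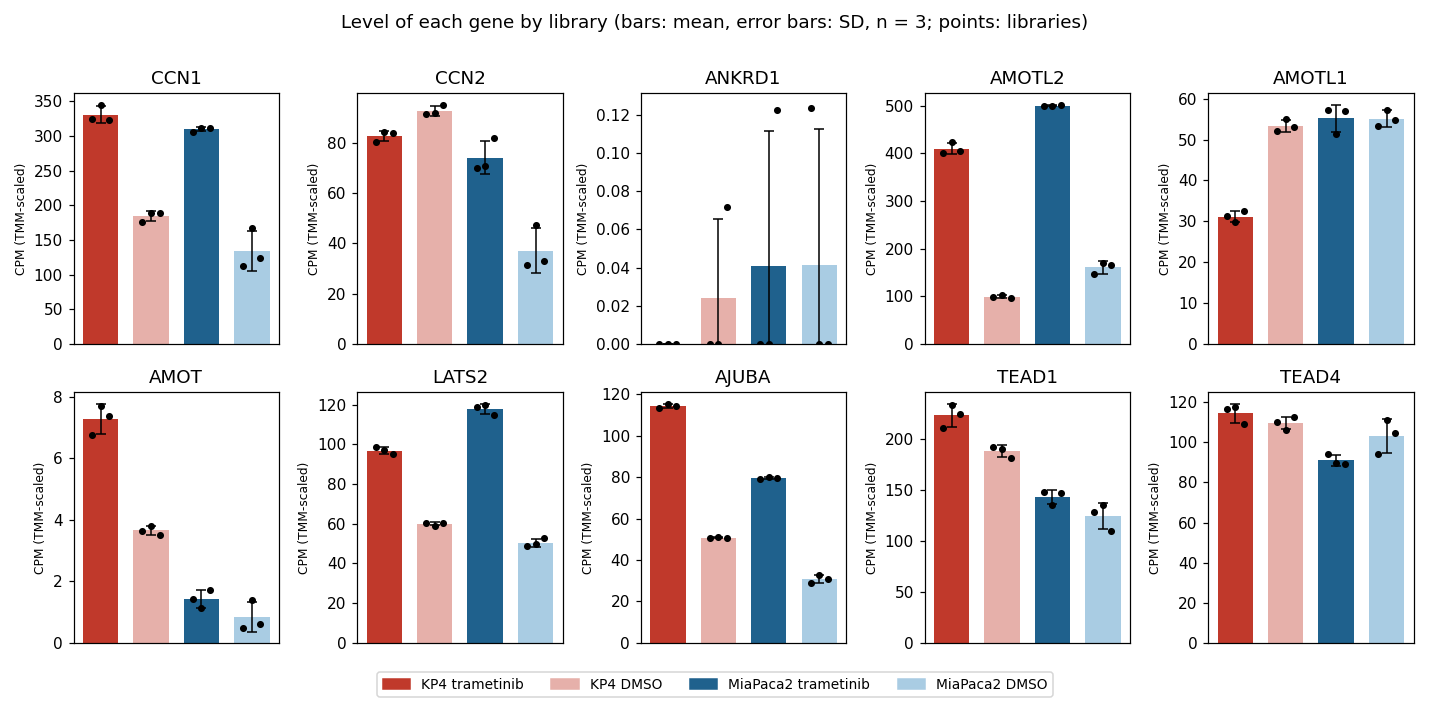
Level of each of the 10 genes in CPM (depth-normalised counts, scaled by TMM) in KP4 trametinib, KP4 DMSO, MiaPaca2 trametinib and MiaPaca2 DMSO, with bars for the mean, error bars for the SD (n = 3) and points for the libraries; each panel has its own axis from 0. AMOTL2, LATS2, AJUBA and CCN1 stood above DMSO in every trametinib library of both lines, and the ANKRD1 panel spans less than 1 CPM.

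CCN1 encodes a secreted matricellular protein that signals through integrins (ENSG00000142871, chromosome 1, 85580761 to 85583962, plus strand, GRCh38). It had 324, 345 and 323 CPM in KP4 trametinib, against 176, 188 and 189 CPM in KP4 DMSO. In MiaPaca2 it had 306, 311 and 312 CPM in trametinib, against 112, 166 and 123 CPM in DMSO. All 6 trametinib libraries lay above all 6 DMSO libraries, and the highest MiaPaca2 DMSO value was that of replicate 2. CCN1 rose 1.79-fold in KP4 (log2 fold change 0.84 ± 0.12, SE; edgeR adjusted p = 0.000227) and 2.31-fold in MiaPaca2 (1.21 ± 0.12, edgeR adjusted p = 1.06e-05). Without MiaPaca2 DMSO replicate 2 the MiaPaca2 value was 1.39. The lines' responses to trametinib differed by −0.37 ± 0.17 (KP4 minus MiaPaca2, edgeR adjusted p = 0.119), which did not pass; without that replicate the difference was −0.55 and passed (edgeR adjusted p = 8.64e-11, with 8.64e-11 to 0.288 over the alternatives).

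CCN2, a second matricellular protein and a standard readout of YAP, behaved differently in the lines (ENSG00000118523, chromosome 6, 131948176 to 131951373, minus strand). It had 80.4, 84.1 and 83.7 CPM in KP4 trametinib, against 91.2, 91.7 and 94.999 CPM in KP4 DMSO. The MiaPaca2 libraries held 69.9, 70.7 and 81.7 CPM in trametinib, against 31.2, 47.2 and 32.9 CPM in DMSO. The KP4 groups did not overlap and lay close together, while every MiaPaca2 trametinib library lay above every MiaPaca2 DMSO library, again with replicate 2 the highest of the DMSO libraries. CCN2 rose 2.00-fold in MiaPaca2 (1.00 ± 0.13, edgeR adjusted p = 2.58e-05; 1.21 without that replicate). In KP4 the log2 fold change was −0.16 ± 0.12 (edgeR adjusted p = 0.286), and it passed as a 2nd gene that fell without MiaPaca2 DMSO replicate 2 (−0.17, edgeR adjusted p = 0.00502) and with only the libraries compared in the fit (−0.16, edgeR adjusted p = 7.81e-05), with 7.81e-05 to 0.547 over the alternatives. The lines' responses differed by −1.16 ± 0.17 (edgeR adjusted p = 0.000267). CCN2, whose window held the most GGAATG matches of the 9 searched, was thus not called in KP4, and nothing about binding follows from the letters.

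The 2 CCN genes therefore both rose in MiaPaca2, while in KP4 CCN1 rose and CCN2 was not called. Per kilobase of exon, CCN1 stood at 3.84, 3.90 and 3.68 times CCN2 in the KP4 trametinib libraries, against 1.84, 1.96 and 1.89 times in KP4 DMSO. The same ratio was 4.17, 4.19 and 3.64 in MiaPaca2 trametinib, against 3.41, 3.36 and 3.57 in MiaPaca2 DMSO. The ratio in MiaPaca2 DMSO replicate 2 (3.36) lay beside those of replicates 1 and 3, although both of its levels were higher. KP4 DMSO was the group that stood apart in this ratio, below 2, and no test was run on it.

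ANKRD1, a nuclear ankyrin-repeat protein of stretched muscle and a widely used YAP reporter, was close to silent (ENSG00000148677, chromosome 10, 90912096 to 90921276, minus strand). It had 0 counts in KP4 trametinib, 2 in KP4 DMSO, 3 in MiaPaca2 trametinib and 3 in MiaPaca2 DMSO, each summed over 3 libraries. The counts of a group came from 1 of its libraries, or from none in KP4 trametinib. A count of 0 over the KP4 trametinib group allows, at 3 counts, up to 0.0370 CPM, so no fold is given and differences were not detectable at this depth. Its relative ANKRD2, from the same muscle ankyrin-repeat family, had 1.71 ± 0.20 CPM in KP4 trametinib, against 0.266 ± 0.14 CPM in KP4 DMSO, and 1.22 ± 0.43 CPM in MiaPaca2 trametinib, against 0.112 ± 0.11 CPM in MiaPaca2 DMSO. ANKRD2 rose in both lines at these low levels (2.66 ± 0.45, edgeR adjusted p = 2.07e-05 in KP4; 3.38 ± 0.56, edgeR adjusted p = 8.74e-06 in MiaPaca2), and ANKRD23 passed in neither. Of the 4 other CCN family genes, CCN3 had group means of 0.238 CPM or less, CCN4 had 1 count over all libraries, CCN6 had none, and these 3 were not tested. CCN5 likewise rose at a low level, to 1.34 ± 0.32 CPM in KP4 trametinib, against 0.118 ± 0.14 CPM in KP4 DMSO, and to 1.23 ± 0.23 CPM in MiaPaca2 trametinib, against 0.0986 ± 0.047 CPM in MiaPaca2 DMSO (SD, n = 3 each).

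AMOTL2, an angiomotin that binds YAP at cell junctions, gave the largest rise of the 9 genes in each line (ENSG00000114019, chromosome 3, 134355874 to 134375479, minus strand). It had 400.4, 423 and 405 CPM in KP4 trametinib, against 98.3, 102 and 96.7 CPM in KP4 DMSO. In MiaPaca2 it had 499.6, 498 and 501 CPM in trametinib, against 146, 170.4 and 166 CPM in DMSO. The lowest trametinib library of either line lay at 400.4 CPM and the highest DMSO library at 170.4 CPM. AMOTL2 rose 4.13-fold in KP4 (2.05 ± 0.05, edgeR adjusted p = 7.89e-22) and 3.11-fold in MiaPaca2 (1.64 ± 0.05, edgeR adjusted p = 1.88e-20). The KP4 response was the larger, by 0.41 ± 0.07 (edgeR adjusted p = 1.67e-05).

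AMOTL1, its close relative (ENSG00000166025, chromosome 11, 94706431 to 94876753, plus strand), did not follow it. It had 31.3, 29.7 and 32.5 CPM in KP4 trametinib, against 52.0, 55.0 and 53.0 CPM in KP4 DMSO. The MiaPaca2 libraries held 57.3, 51.4 and 56.9 CPM in trametinib, against 53.3, 57.3 and 54.8 CPM in DMSO. The 3 KP4 trametinib libraries were the low ones, and the other 9 libraries overlapped between 51.4 and 57.3 CPM. AMOTL1 fell 1.71-fold in KP4 (−0.78 ± 0.06, edgeR adjusted p = 7.03e-11), and its log2 fold change in MiaPaca2 was 0.00 ± 0.06 (edgeR adjusted p = 0.961). The responses differed by −0.78 ± 0.08 (edgeR adjusted p = 6.23e-08).

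AMOT, the founding angiomotin (ENSG00000126016, chromosome X, 112774503 to 112840815, minus strand), was scarce. It had 6.75, 7.70 and 7.38 CPM in KP4 trametinib, against 3.64, 3.81 and 3.51 CPM in KP4 DMSO. In MiaPaca2 it had 1.42, 1.14 and 1.71 CPM in trametinib, against 0.495, 1.41 and 0.620 CPM in DMSO. The KP4 groups were separate, and the MiaPaca2 groups overlapped because DMSO replicate 2 reached the trametinib range. AMOT rose 1.99-fold in KP4 (0.99 ± 0.19, edgeR adjusted p = 0.000121) and 1.71-fold in MiaPaca2 (0.77 ± 0.30, edgeR adjusted p = 0.0275). The MiaPaca2 call rested on single libraries: it was 1.36 without DMSO replicate 2, it was lost without DMSO replicate 1 (0.49) or 3 (0.60) and without trametinib replicate 1 (0.78) or 3 (0.61), and it was also lost with only the libraries compared in the fit (0.73), with edgeR adjusted p from 0.000328 to 0.167 over the alternatives.

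Genes were set against each other per kilobase of exon, over all annotated exons of a gene and not only those of the transcripts expressed. On this scale the 3 angiomotins summed to 72.4 ± 2.0 CPM per kb in KP4 trametinib, against 22.3 ± 0.64 in KP4 DMSO. The sum was 89.2 ± 0.58 in MiaPaca2 trametinib, against 32.5 ± 2.4 in MiaPaca2 DMSO (SD, n = 3 each). AMOTL2 made up 94.5% of the sum in KP4 trametinib, against 74.2% in KP4 DMSO, and 93.6% in MiaPaca2 trametinib, against 82.7% in MiaPaca2 DMSO. AMOTL1 made up 4.29% in KP4 trametinib, against 23.8% in KP4 DMSO. The mix of angiomotin transcripts was thus more uneven under trametinib in both lines, and AMOT stayed under 2% of the sum in each group.

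LATS2 is one of the 2 LATS kinases, which phosphorylate YAP and TAZ (ENSG00000150457, chromosome 13, 20973032 to 21061547, minus strand). It had 98.7, 96.9 and 94.98 CPM in KP4 trametinib, against 60.5, 59.0 and 60.5 CPM in KP4 DMSO. The MiaPaca2 libraries held 119, 119.6 and 115 CPM in trametinib, against 48.7, 49.96 and 52.6 CPM in DMSO. The trametinib and DMSO libraries did not overlap in either line. LATS2 rose 1.61-fold in KP4 (0.69 ± 0.05, edgeR adjusted p = 4.80e-12) and 2.33-fold in MiaPaca2 (1.22 ± 0.05, edgeR adjusted p = 2.22e-17), and the KP4 response was the smaller, by −0.53 ± 0.07 (edgeR adjusted p = 6.69e-07). Its sister kinase LATS1 did not rise in either line: its log2 fold change was −0.06 ± 0.05 in KP4, which did not pass, and it fell by 0.14 on the log2 scale in MiaPaca2 (edgeR adjusted p = 0.0276). Per kilobase, LATS2 stood at 2.69 ± 0.034 times LATS1 in KP4 trametinib, against 1.60 ± 0.077 times in KP4 DMSO, and at 3.33 ± 0.063 times in MiaPaca2 trametinib, against 1.30 ± 0.046 times in MiaPaca2 DMSO (SD, n = 3 each).

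AJUBA encodes a LIM-domain protein of cell junctions that binds LATS kinases and restrains them (ENSG00000129474, chromosome 14, 22971174 to 22982642, minus strand). It had 113, 115 and 114 CPM in KP4 trametinib, against 50.5, 51.3 and 50.7 CPM in KP4 DMSO. In MiaPaca2 it had 79.1, 79.8 and 79.6 CPM in trametinib, against 28.8, 33.0 and 30.9 CPM in DMSO. The libraries of a group lay close together, and every trametinib library lay above every DMSO library of its line. AJUBA rose 2.25-fold in KP4 (1.17 ± 0.05, edgeR adjusted p = 4.45e-16) and 2.58-fold in MiaPaca2 (1.36 ± 0.05, edgeR adjusted p = 2.32e-17). The difference between these responses, −0.20 ± 0.07, passed narrowly (edgeR adjusted p = 0.0389) and was lost in 14 of 20 alternatives, with adjusted p from 0.0057 to 0.258. Of its 5 LIM-domain relatives, LPP and WTIP rose in both lines (0.47 and 0.39 in KP4, 0.60 and 0.41 in MiaPaca2, log2). LIMD1 fell by 0.12 in KP4, and TRIP6 fell by 0.76 in MiaPaca2, while ZYX, which encodes the focal-adhesion protein zyxin, passed in neither line. The LIMD1 call was lost under RLE scaling, library-size scaling and DESeq2. It was also lost without KP4 DMSO replicate 1, 2 or 3, or KP4 trametinib replicate 1 or 2. Without MiaPaca2 DMSO replicate 2, 4 of the 5 relatives rose in MiaPaca2, where 5621 of 16596 tested genes rose. In the full fit 2 rose there, where 34.1% of all tested genes rose and 29.5% fell, beside 23.6% and 23.6% in KP4. TRIP6 averaged 1.45 CPM in KP4 trametinib and 1.40 in KP4 DMSO, against 37.7 in MiaPaca2 trametinib and 64.0 in MiaPaca2 DMSO.

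TEAD1 and TEAD4 encode DNA-binding partners of YAP and TAZ, and their levels moved little. TEAD1 (ENSG00000187079, chromosome 11, 12674591 to 12944483, plus strand) had 211, 233 and 225 CPM in KP4 trametinib, against 192, 190.4 and 181 CPM in KP4 DMSO. The MiaPaca2 libraries held 148, 135 and 146 CPM in trametinib, against 129, 135 and 109.996 CPM in DMSO. Trametinib libraries lay above DMSO libraries in both lines, by a narrow margin in MiaPaca2, where trametinib replicate 2 and DMSO replicate 2 stood at about the same level. TEAD1 rose 1.19-fold in KP4 (0.25 ± 0.06, edgeR adjusted p = 0.00137) and 1.15-fold in MiaPaca2 (0.20 ± 0.06, edgeR adjusted p = 0.00618).

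TEAD4 (ENSG00000197905, chromosome 12, 2959330 to 3040673, plus strand) had 117, 117.4 and 109 CPM in KP4 trametinib, against 110.2, 106 and 112 CPM in KP4 DMSO. In MiaPaca2 it had 94.1, 89.8 and 89.2 CPM in trametinib, against 94.0, 111 and 104 CPM in DMSO. The groups overlapped in both lines, in MiaPaca2 through DMSO replicate 1. TEAD4 fell 1.13-fold in MiaPaca2 (−0.18 ± 0.05, edgeR adjusted p = 0.00539), its log2 fold change in KP4 was 0.06 ± 0.05 (edgeR adjusted p = 0.369), and the responses differed by 0.24 ± 0.08 (edgeR adjusted p = 0.0142). Of the other TEAD genes, TEAD3 rose in both lines (0.33 in KP4, 0.43 in MiaPaca2) and TEAD2 passed in neither. Summed per kilobase, the 4 TEAD genes reached 95.3 ± 2.4 CPM per kb in KP4 trametinib, against 88.8 ± 1.3 in KP4 DMSO, and 81.7 ± 1.4 in MiaPaca2 trametinib, against 82.9 ± 5.4 in MiaPaca2 DMSO (SD, n = 3 each). On this scale TEAD4 was the most abundant of them in each group, with 49.0% to 54.7% of the sum. That order rests on the exon lengths used, 10279 bases for TEAD1 and 2272 for TEAD4. In CPM, TEAD1 averaged more than TEAD4 in each group.

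**Figure D2:**
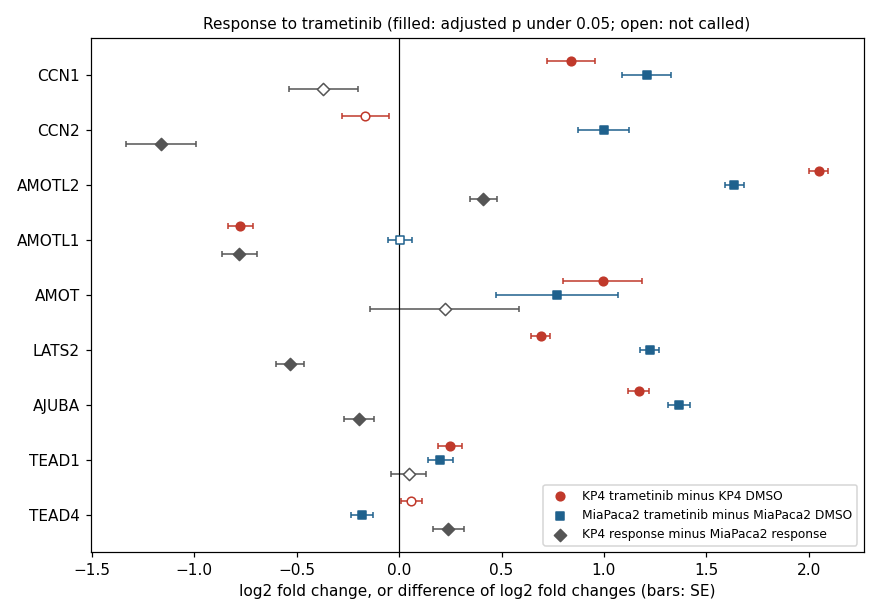
Log2 fold change of the 9 tested genes (trametinib over DMSO) in KP4 (circles) and MiaPaca2 (squares), and the difference between the responses, KP4 minus MiaPaca2 (diamonds), with bars for the standard error; filled points passed edgeR's test at an adjusted p under 0.05. CCN2 and AMOTL1 are the genes whose KP4 points lie left of 0 while their MiaPaca2 points lie at 1.00 and 0.00.

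The response differed between the lines for 6 of the 9 genes. It was higher in KP4 for AMOTL2 and TEAD4 and lower in KP4 for CCN2, AMOTL1, LATS2 and AJUBA, where 16.2% of all tested genes were higher and 19.9% lower. Without MiaPaca2 DMSO replicate 2 the counts were 2 and 5, as CCN1 also passed. Over all genes of that fit, 3058 of 16596 were higher and 3794 lower, against 2616 and 3212 of 16133 in the full fit. The differences of AMOT (0.22 ± 0.36, edgeR adjusted p = 0.680) and TEAD1 (0.05 ± 0.08, edgeR adjusted p = 0.716) did not pass, and both turned negative without that replicate (−0.37 and −0.01).

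Between the lines in DMSO, KP4 DMSO had more of 6 of the 9 genes and less of 1 than MiaPaca2 DMSO, where 31.9% of all tested genes were higher and 31.1% lower. AMOT was 4.33-fold higher in KP4 DMSO (2.11 ± 0.26, edgeR adjusted p = 9.20e-08) and CCN2 2.50-fold higher (1.32 ± 0.12, edgeR adjusted p = 2.02e-06), followed by AJUBA (0.72), TEAD1 (0.59), CCN1 (0.46) and LATS2 (0.25). AMOTL2 was 1.62-fold lower in KP4 DMSO (−0.70 ± 0.05, edgeR adjusted p = 2.02e-12). TEAD4 (0.09) and AMOTL1 (−0.05) did not pass. Without MiaPaca2 DMSO replicate 2 the log2 difference was 2.71 for AMOT, 1.53 for CCN2, 0.77 for AJUBA, 0.65 for TEAD1, 0.65 for CCN1, 0.25 for LATS2 and −0.65 for AMOTL2, all called, and TEAD4 also passed (0.15), so that 7 were higher and 1 lower. Of the 16596 genes tested in that fit, 5268 were higher and 5178 lower.

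Under trametinib the log2 difference between the lines was smaller in both CCN genes. By the test of the response difference in the full fit, that change passed for CCN2 (−1.16) and not for CCN1 (−0.37, edgeR adjusted p = 0.119). KP4 trametinib had more of 4 genes and less of 3 than MiaPaca2 trametinib, where 26% of all tested genes were higher and 29.2% lower. AMOT (2.34), TEAD1 (0.64), AJUBA (0.52) and TEAD4 (0.33) were higher in KP4 trametinib, and AMOTL1 (−0.83), AMOTL2 (−0.29) and LATS2 (−0.28) were lower. CCN1 (0.09 ± 0.12, edgeR adjusted p = 0.528) and CCN2 (0.16 ± 0.12, edgeR adjusted p = 0.289) did not pass, although both passed without MiaPaca2 DMSO replicate 2, at 0.10 and 0.16, which made 6 higher. That fit called 4553 of 16596 genes higher and 5039 lower, against 4191 and 4718 of 16133 in the full fit. For CCN2 the order of group means was KP4 DMSO (92.6 CPM), KP4 trametinib (82.7), MiaPaca2 trametinib (74.1) and MiaPaca2 DMSO (37.1), and the libraries overlapped between the second and the third. For CCN1 it was KP4 trametinib (330.4 CPM), MiaPaca2 trametinib (309.6), KP4 DMSO (184) and MiaPaca2 DMSO (134), with no overlap between neighbours. LATS2 was higher in KP4 than in MiaPaca2 among DMSO libraries and lower among trametinib libraries, so its order across the lines was turned round.

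Per kilobase of exon, CCN1 stood at rank 1 of the 10 genes in each group, at 134.6 CPM per kb in KP4 trametinib, 75.1 in KP4 DMSO, 126.1 in MiaPaca2 trametinib and 54.5 in MiaPaca2 DMSO. AMOTL2 stood at rank 2 in both trametinib groups (68.5 in KP4, 83.5 in MiaPaca2), and at rank 5 in KP4 DMSO (16.6) and rank 3 in MiaPaca2 DMSO (26.9). TEAD4 stood at rank 2 in both DMSO groups (48.3 in KP4, 45.4 in MiaPaca2). AMOT and ANKRD1 were the lowest in each group.

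**Figure D3:**
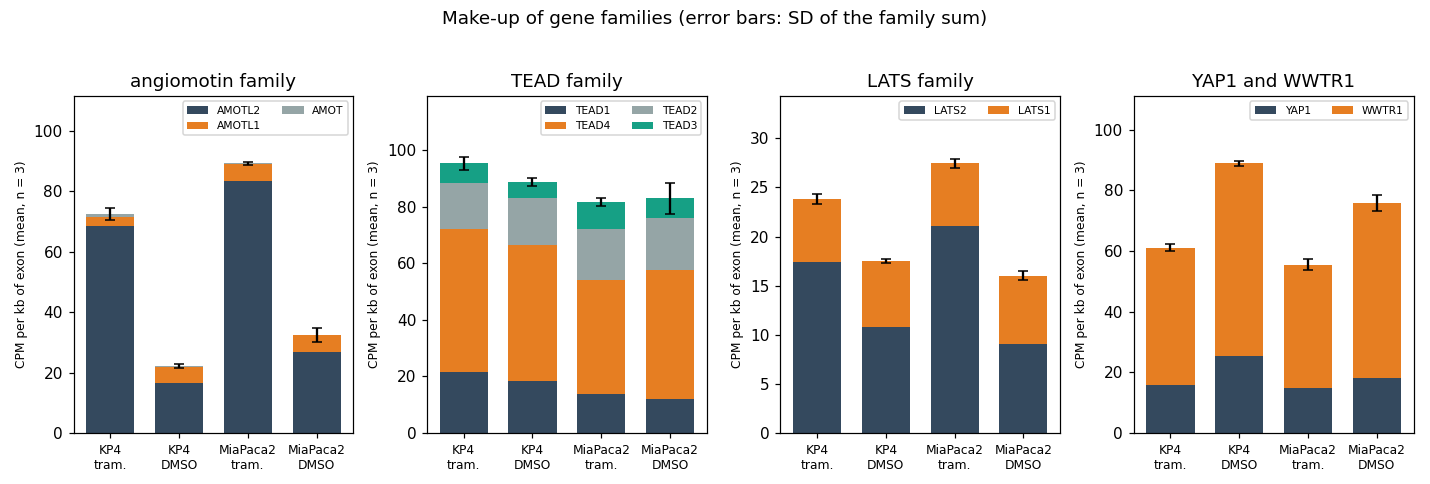
Make-up of 4 gene families in CPM per kilobase of exon (means stacked by gene, error bars for the SD of the family sum, n = 3) in KP4 and MiaPaca2 cells with trametinib and with DMSO. The angiomotin and LATS sums were higher under trametinib, mostly by AMOTL2 and LATS2, while the sum of YAP1 and WWTR1 was lower under trametinib in both lines.

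The coactivators themselves went the other way. YAP1 had 101 ± 3.9 CPM in KP4 trametinib, against 159 ± 1.5 CPM in KP4 DMSO, and 92.9 ± 2.2 CPM in MiaPaca2 trametinib, against 114 ± 6.5 CPM in MiaPaca2 DMSO (SD, n = 3 each). It fell by 0.66 on the log2 scale in KP4 (edgeR adjusted p = 8.32e-12) and by 0.29 in MiaPaca2 (edgeR adjusted p = 7.44e-06). WWTR1, which encodes TAZ, fell by 0.50 in both lines, to 379 ± 9.7 CPM in KP4 trametinib, against 535 ± 6.4 CPM in KP4 DMSO, and to 343 ± 13 CPM in MiaPaca2 trametinib, against 486 ± 19 CPM in MiaPaca2 DMSO. Both coactivator transcripts were thus lower in trametinib while most of the 9 genes were higher. Their sum was 61.1 ± 1.2 CPM per kb in KP4 trametinib, against 88.9 ± 0.89 in KP4 DMSO, and 55.6 ± 1.9 in MiaPaca2 trametinib, against 75.9 ± 2.6 in MiaPaca2 DMSO. VGLL4, a cofactor that competes with YAP for TEAD binding, rose in both lines (0.44 in KP4, 0.58 in MiaPaca2). VGLL1 and VGLL2 had no count, and VGLL3 passed in neither line.

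Among 17 further published YAP/TEAD target genes, all of them tested, 10 rose and 3 fell in KP4 (median log2 fold change 0.44), where 23.6% of all tested genes rose and 23.6% fell (median 0.00). In MiaPaca2, 12 rose and 4 fell (median 0.85), where 34.1% of all tested genes rose and 29.5% fell (median 0.05). TGFB2, a TGF-beta ligand, rose most, to 9.17 ± 0.51 CPM in KP4 trametinib, against 1.16 ± 0.17 CPM in KP4 DMSO (2.97 ± 0.18, edgeR adjusted p = 3.93e-13), and to 7.75 ± 1.1 CPM in MiaPaca2 trametinib, against 0.843 ± 0.16 CPM in MiaPaca2 DMSO (3.20 ± 0.20, edgeR adjusted p = 2.53e-13). CCDC80, an extracellular matrix protein, rose by 1.67 in KP4 and 1.83 in MiaPaca2, and IGFBP3, which binds insulin-like growth factors, by 1.41 and 2.91. The IGFBP3 levels were low, at 1.02 ± 0.18 CPM in KP4 trametinib, against 0.388 ± 0.25 CPM in KP4 DMSO. They were 10.6 ± 1.6 CPM in MiaPaca2 trametinib, against 1.40 ± 0.56 CPM in MiaPaca2 DMSO. The kinase gene NUAK2 rose to 47.8 ± 2.0 CPM in KP4 trametinib, against 31.5 ± 0.97 CPM in KP4 DMSO, and to 38.2 ± 1.1 CPM in MiaPaca2 trametinib, against 10.5 ± 2.8 CPM in MiaPaca2 DMSO. NT5E, which encodes the ectonucleotidase CD73, fell to 50.5 ± 2.4 CPM in KP4 trametinib, against 226 ± 5.8 CPM in KP4 DMSO, and to 129.9 ± 6.0 CPM in MiaPaca2 trametinib, against 463 ± 10 CPM in MiaPaca2 DMSO. The receptor tyrosine kinase gene AXL fell by 0.42 in KP4 and 0.20 in MiaPaca2, DOCK5, a Rac activator, by 0.28 and 0.23, and FJX1 by 0.29 in MiaPaca2. By the test of the difference between the lines, 8 of the 17 responses were lower in KP4 and 1 was higher. Of all tested genes 19.9% were lower and 16.2% higher, and the medians were −0.21 for the 17 and −0.05 over all tested genes. The 8 include NT5E and AXL, which fell in both lines and fell further in KP4.

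Of 27 Hippo kinases and upstream regulators, 26 were tested, and calls ran in both directions: 9 rose and 10 fell in KP4 (median −0.05), where 23.6% of all tested genes rose and 23.6% fell (median 0.00). In MiaPaca2, 11 rose and 6 fell (median 0.09), where 34.1% of all tested genes rose and 29.5% fell (median 0.05). Without KP4 trametinib replicate 1 the count that fell in KP4 was 6. The count over all tested genes was then also smaller, at 3033 of 16560, against 3812 of 16133 in the full fit. Without MiaPaca2 trametinib replicate 2, and also with library-size scaling, the count that fell in MiaPaca2 was 3. Over all tested genes, 4550 of 16564 and 4538 of 16133 fell there, against 4755 of 16133 in the full fit. FAT4, an atypical cadherin, rose most, to 38.7 ± 0.76 CPM in KP4 trametinib, against 14.7 ± 1.2 CPM in KP4 DMSO (1.39), and to 85.8 ± 5.8 CPM in MiaPaca2 trametinib, against 15.7 ± 0.087 CPM in MiaPaca2 DMSO (2.45). The scaffold gene WWC1, known as KIBRA, rose by 0.58 in KP4 and 0.88 in MiaPaca2, WWC2 by 0.63 in KP4 and the kinase gene TAOK3 by 0.62 in MiaPaca2. The kinase genes TNIK and MAP4K3 and the polarity gene DLG5 fell in KP4, by 0.46, 0.36 and 0.44, and rose in MiaPaca2, by 0.40, 0.31 and 0.22. In MiaPaca2 the polarity gene SCRIB fell by 0.68, WWC3 by 0.37 and STK4, which encodes the Hippo kinase MST1, by 0.31.

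**Figure D4:**
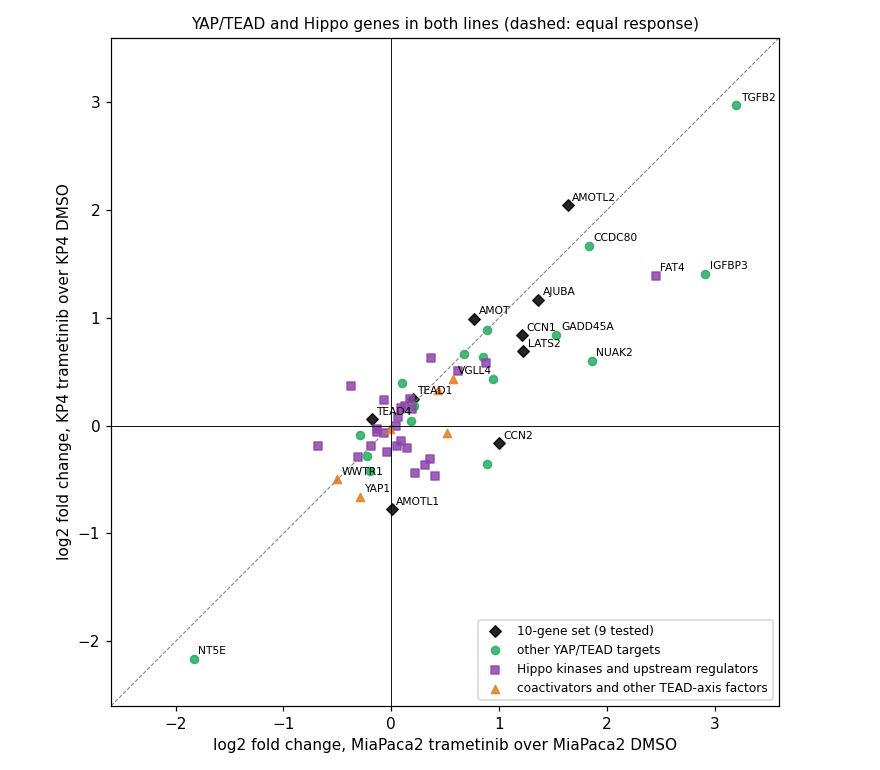
Log2 fold change (trametinib over DMSO) in KP4 on the vertical axis against MiaPaca2 on the horizontal axis for the 9 tested genes of the set (diamonds), 17 further YAP/TEAD targets (circles), 26 Hippo kinases and upstream regulators (squares) and 6 coactivators and other TEAD-axis factors (triangles); the dashed line marks equal response. TGFB2, IGFBP3, FAT4 and AMOTL2 lie at the upper right, NT5E at the lower left, and CCN2 lies right of the dashed line, near 0 in KP4.

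Targets of SRF and its MRTF cofactors respond to actin, and some are also YAP/TEAD targets. Of 12 listed genes 11 were tested, of which 7 rose and 1 fell in KP4 (median 0.26, beside 23.6% of all tested genes that rose, 23.6% that fell and a median of 0.00), and 3 rose and 5 fell in MiaPaca2 (median −0.07, beside 34.1%, 29.5% and 0.05). By the test of the difference between the lines, the response was higher in KP4 for 5 of the 11, lower for 2 and not called for 4, where 16.2% of all tested genes were higher and 19.9% lower. TPM1, an actin-binding tropomyosin, rose in both, to 186 ± 4.3 CPM in KP4 trametinib, against 92.4 ± 3.3 CPM in KP4 DMSO, and to 172 ± 3.9 CPM in MiaPaca2 trametinib, against 43.9 ± 7.2 CPM in MiaPaca2 DMSO. CNN1, a smooth-muscle calponin, rose by 1.54 in KP4 and 2.47 in MiaPaca2, each to under 2 CPM. MYL9, a myosin light chain, rose by 1.44 in KP4, to 1.18 CPM, against 0.427 CPM in KP4 DMSO, and ACTA2 by 0.58 in MiaPaca2. FHL2, a LIM-domain cofactor, fell by 1.00 in KP4 and 1.13 in MiaPaca2, and ACTB and the focal-adhesion gene VCL fell by 0.40 and 0.28 in MiaPaca2.

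Across the 12 libraries, the genes whose log2 CPM followed each of the 9 tested genes most closely, among 10892 with a mean of at least 5 CPM, were found by Pearson's r. TNS3, a focal-adhesion tensin, followed AMOTL2 (r = 0.997), with EPB41 and H6PD next. PSMB9, an immunoproteasome subunit, followed LATS2 (r = 0.997), with the interferon-induced gene IFI44 and RFX5 next. TP53I11 followed AJUBA (r = 0.996), with CAVIN1 and CTNNA1 next. For CCN1 they were PRMT2 (r = 0.993), TMEM131L and DGKQ, and for CCN2 they were DZIP1 (r = 0.989), TSC22D2 and UXS1. For AMOT they were INPP5K (r = 0.991), MAP3K14 and INSIG1, and for AMOTL1 JADE2 (r = 0.972), GANAB and CXCL8. TEAD1 had DIS3L (r = 0.986), CCDC93 and MSMO1, and TEAD4 had TMEM104 (r = 0.969), COMMD9 and NHERF1. The 12 libraries fall into 4 groups whose means set these values, so they describe likeness of pattern over the groups and carry no p.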

How the data were processed

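Raw counts of reads for each gene, whole numbers and not normalized, were deposited by the authors for 12 libraries; the 3 libraries of each group were kept as separate samples. The submitters' processing notes name STAR and DESeq2 and the build GRCh38 (hg38). For the tool versions, the counting program, its annotation and its use of strand, nothing is given in the sources used here, so overlapping genes on opposite strands cannot be told apart: AL133346.1 overlaps 8.34% of CCN2's exons, with 73 reads over all libraries beside 21873 of CCN2. Per the labels' protocols, a PureLink kit gave the RNA and a Tecan mRNA kit the libraries. The identifiers of the deposited counts were named and placed with GENCODE 29.

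Counts were filtered with filterByExpr, scaled by TMM and tested with edgeR 4.0.16's quasi-likelihood test (R 4.3.3, limma 3.58.1, robust shrinkage, 1 mean per group over all 12 libraries, no covariate), with Benjamini-Hochberg adjustment over 16133 genes; an adjusted p under 0.05 is a call. CPM is TMM-scaled, and CPM per kb divides it by the GENCODE exon length of the gene. The floor of 3 counts covers counting error only. The scripts were checked on simulated counts with known changes. Alternatives were DESeq2 1.42.0, limma-voom, RLE or library-size scaling, no filter or 1 CPM in 6 libraries, no robust shrinkage, only the libraries compared, the replicate number as a block, and each library left out. The 10 genes and the other gene lists were chosen with earlier results of these data known. From the other lists, the genes named are the 3 largest rises and falls past the test in each line, all genes of short lists, and the 3 genes most alike each of the 9 tested ones.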

Additional observations from a re-analysis of the deposited data

Results flagged for a closer look

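For 6 of the 9 tested genes the log2 response to trametinib differed between the lines by edgeR's test of the difference itself (KP4 minus MiaPaca2). By the same test, 16.2% of all tested genes were higher and 19.9% lower. For CCN2 the difference was −1.16 ± 0.17 (SE; edgeR adjusted p = 0.000267), with a rise in MiaPaca2 and no call in KP4. For AMOTL1 it was −0.78 ± 0.08 (edgeR adjusted p = 6.23e-08), with a fall in KP4. For LATS2 it was −0.53 ± 0.07 (edgeR adjusted p = 6.69e-07), with a smaller rise in KP4, and for AMOTL2 it was 0.41 ± 0.07 (edgeR adjusted p = 1.67e-05), with a larger rise in KP4. The remaining differences were smaller, at 0.24 ± 0.08 for TEAD4 (edgeR adjusted p = 0.0142) and −0.20 ± 0.07 for AJUBA (edgeR adjusted p = 0.0389). In MiaPaca2, DMSO replicate 2, which stands apart from its group, enters each of the 6 differences. Without that replicate, on the log2 scale, they were −1.37, −0.81, −0.52, 0.37, 0.18 and −0.24, in the same order, and all passed. The AJUBA difference kept its direction and call in only 6 of 20 alternatives.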

How the results depend on the processing

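Of the member log2 fold changes under the alternatives, 894 kept direction and call, 11 gained the call, 19 lost it and 12 changed sign; 206 member counts stayed within 1.5 times and 2 did not. The number of the 9 genes that fell in KP4 was 2 in place of 1 with only the libraries compared, and ran from 1 to 2 when single libraries were left out, with CCN2 added. Over all tested genes, 4486 of 14954 fell in KP4 with only the libraries compared, against 3812 of 16133 in the full fit. AMOTL1 in MiaPaca2, uncalled throughout, had a log2 fold change of −0.02643 under RLE scaling, −0.00974 with no low-count filter, −0.01371 with the stricter filter, −0.02615 with DESeq2, −0.02857 with only the libraries compared, and −0.03583 to 0.05045 with single libraries left out. With single libraries left out, the response difference ran from −0.3682 to 0.5013 for AMOT and from −0.0133 to 0.1482 for TEAD1, negative in each only without MiaPaca2 DMSO replicate 2. The AJUBA response difference was lost under RLE scaling, no filter, the stricter filter and DESeq2, and without 10 single libraries. CCN5 and ANKRD2 were not tested under the stricter filter. Changing the scaling moved the median of all genes by less than 0.1 on the log2 scale.

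Libraries with the same replicate number did not deviate together: the correlation was over 0.1 in 0 of 18 pairs (−0.024 to 0.033), so the numbers are not taken as pairs. With the replicate block, 7530 genes were called in KP4, against 7617 without it, and the member counts were the same but for the response difference, where 5 in place of 4 were lower, with CCN1 added (log2 difference −0.38, edgeR adjusted p = 0.0491). For that difference, 3180 of all tested genes were lower with the block, against 3212 without it. Depth limits AMOT in MiaPaca2 and ANKRD1.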
